A study of Mus musculus with 18 samples.

Results

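Mitosis and cytokinesis genes were followed across bone marrow-derived macrophages (BMDMs) of 3 genotypes, resting or exposed to bacterial lipopolysaccharide (LPS). The 54 members were chosen by gene name as mitotic cyclins and kinases, kinetochore, condensin, spindle and cytokinesis genes, out of 21734 protein-coding genes in the count table. Of these names, 53 stood in the table as written and 1, Sgol1, was listed under its current symbol Sgo1. All 54 passed a filter on low counts that left 11357 genes, and Foxm1 had the lowest count in any library, 10 reads. The marrow came from mice of mixed 129 and B6 background, 6 to 7 months old, with 3 animals per genotype, and was grown for 8 to 9 days with 10 ng/ml M-CSF, the growth factor that drives macrophage formation and division in such cultures. Wild-type (WT) mice carry the normal miR-146a, KO mice are null for miR-146a, and 3′F mice carry a flipped miR-146a whose 3′ region was traded for the bases across from it in the hairpin while the seed was kept. Each genotype was either given fresh medium alone (resting) or 1 ng/ml LPS for 16 h, which gave 6 groups of 3 libraries. The series asks whether a miR-146a with its seed but without its own 3′ part does what the WT microRNA does. miR-146a is not a protein-coding gene and its level was not analysed here, so the genotypes rest on the labels.

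Mitosis begins when cyclin A and cyclin B activate the kinase Cdk1, whereupon condensin compacts the chromosomes, the spindle forms and kinetochores attach to it. The spindle checkpoint holds the anaphase-promoting complex until attachment is complete, separase then frees the sister chromatids, and a contractile ring at the central spindle divides the cell. Most of these genes are transcribed together late in the cell cycle, under the MuvB complex with B-Myb and Foxm1 in dividing cells and the repressive DREAM form of MuvB in resting ones, through a promoter element called the cell cycle homology region (CHR), often beside CCAAT boxes. BMDMs divide in M-CSF, and LPS is known to slow their division.

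The mature strands of miR-146a are shown because they define the genotypes, with the seed, bases 2 to 8, in capitals, as RefSeq gives them on build GRCm38.p6.
miR-146a-5p, chr11:43374435-43374456, minus strand: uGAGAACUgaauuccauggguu
miR-146a-3p, chr11:43374399-43374420, minus strand: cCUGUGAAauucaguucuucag

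A match to the seed of miR-146a-5p, the 7 bases AGTTCTC, was present in the longest annotated 3′ UTR of 3 of the 54 members, Birc5, Ccna2 and Cdk1, which is 5.56% of members beside 12.6% of 11261 genes tested that had a 3′ UTR. The members' 3′ UTRs were shorter, with a median of 604 bases beside 1171, and held 0.0572 matches per kb beside 0.0887. These 3 members were all called lower in KO at rest, with log2 differences from WT of −2.03, −2.16 and −1.63.

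The promoters of 6 members are shown as examples, picked by no set rule. Each is given as the 100 bases before the transcription start that RefSeq gives on GRCm38.p6, the patch release of the build to which the authors aligned (mm10). RefSeq's starts can lie downstream of the Gencode gene starts, so the stretches of Cenpa and Cdca5 fall inside the Gencode genes, those of Cdk1, Ccnb1 and Ncapg2 in part and that of Top2a wholly before it. Capitals mark a CHR (TTTGAA or TTTAAA) or a CCAAT box, on either strand.
Cdk1, chr10:69352913-69353012, minus strand: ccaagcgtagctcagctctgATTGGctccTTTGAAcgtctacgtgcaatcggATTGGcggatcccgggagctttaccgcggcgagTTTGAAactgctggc
Ccnb1, chr13:100786487-100786586, minus strand: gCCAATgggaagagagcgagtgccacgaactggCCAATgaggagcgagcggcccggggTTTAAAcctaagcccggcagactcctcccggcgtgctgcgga
Top2a, chr11:99024190-99024289, minus strand: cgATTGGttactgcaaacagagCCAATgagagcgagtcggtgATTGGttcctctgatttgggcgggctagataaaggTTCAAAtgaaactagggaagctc
Cenpa, chr5:30666786-30666885, plus strand: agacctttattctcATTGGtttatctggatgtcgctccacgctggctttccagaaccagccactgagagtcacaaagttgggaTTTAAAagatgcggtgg
Cdca5, chr19:6084997-6085096, plus strand: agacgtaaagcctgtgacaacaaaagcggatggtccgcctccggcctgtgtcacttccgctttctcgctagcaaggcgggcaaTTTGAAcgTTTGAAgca
Ncapg2, chr12:116405336-116405435, plus strand: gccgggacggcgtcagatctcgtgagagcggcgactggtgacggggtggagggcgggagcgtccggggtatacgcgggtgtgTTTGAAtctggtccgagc

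All 6 stretches held a CHR, and the match nearest the RefSeq start lay downstream of the CCAAT boxes in Cdk1, Ccnb1, Top2a and Cenpa. In Cdk1 a further CHR lay between the CCAAT boxes, and the stretches of Cdca5 and Ncapg2 held no CCAAT box. RefSeq promoters, from 250 bases before to 50 after a start, were at hand for 43 members, and 37 of them (86%) held TTTGAA or TTTAAA on either strand, beside 30.6% of the 27025 genes with a promoter. These 27025 genes were not limited to those in the count table or to those tested. TTTGAA alone was in 34 members (79.1%) beside 20.2% of all genes. A CCAAT box was in 30 members (69.8%) beside 41.1% of all genes, and the E2F core GCGGGAA was in 2 members (4.65%), the condensin genes Ncapg and Ncapg2, beside 5.29% of all genes. Among 37 genes of DNA replication and S phase, promoters were at hand for 31, with a CHR in 8 (25.8%) and the E2F core in 13 (41.9%). The 6 members without either CHR form in this window were Bub1, Mad2l1, Ncaph, Nuf2, Nusap1 and Sgol1. These matches are descriptions of letters in a window, and binding was not measured. The members were chosen as mitosis genes, and any relation of these motifs to the difference between KO and WT was not tested.

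**Figure D1:**
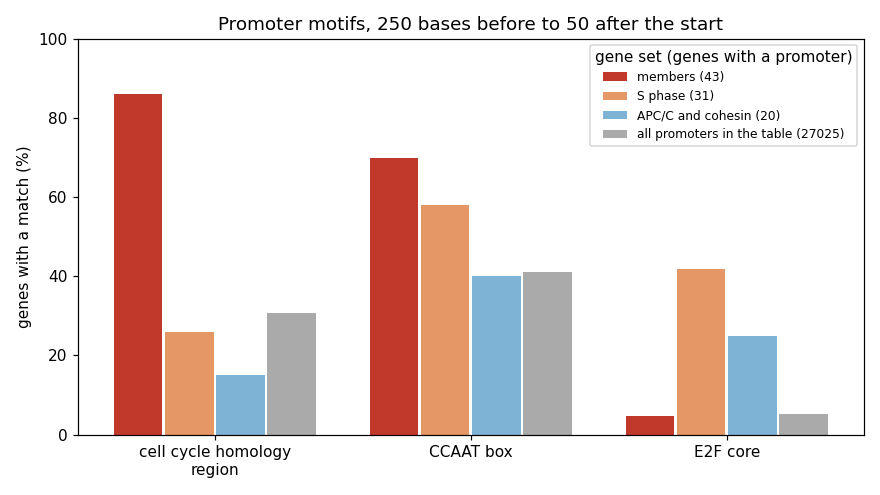
Share of genes, in percent, whose promoter (250 bases before to 50 after the start) holds a cell cycle homology region, a CCAAT box or the E2F core on either strand, for the members, the S phase list, the list of anaphase-promoting complex (APC/C) and cohesin genes and all genes with a promoter. The members stand at 86% for the cell cycle homology region and at 4.65% for the E2F core, the S phase list at 25.8% and 41.9%.

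Libraries held 4071084 to 19818043 counts, with resting 3′F replicate 3 the shallowest. All 10 macrophage markers (among them Adgre1, Csf1r and Cd68) were detected in each library, at a summed 32091 to 88354 CPM (counts scaled to library size after TMM normalization). Summed markers of early myeloid precursors ran from 0.765 to 8.19 CPM, of dendritic cells from 0.434 to 4.21, of stroma from 0.394 to 5.29, of lymphocytes from 0.898 to 11.8 and of neutrophils from 35.8 to 232, and erythroid and megakaryocyte markers, nearly all of it Pf4, from 108 to 591. Resting 3′F replicate 3 had the highest precursor and dendritic cell values. Resting KO replicate 3 stood apart from the other resting KO libraries in 10 interferon-stimulated genes, whose summed level was 485, 331 and 10602 CPM in resting KO replicates 1 to 3 and 65.9 to 167 in resting WT. Counts of called members are given with and without these libraries where the count changed, as are values of some, but not all, named genes that lost or gained a call. The 18 libraries are bulk RNA, in which fewer dividing cells and less of each message per cell cannot be told apart.

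The members were broadly lower in resting KO than in resting WT. Of 54 members, 51 were called lower and none higher by edgeR's quasi-likelihood test at an adjusted p under 0.05, beside 4.27% of all genes tested that were called lower. In all 54 the 3 KO libraries lay below the 3 WT libraries, beside 13.1% of all genes tested. The median log2 difference of the members was −1.86, while that of all genes tested was 0.017, and members ranged from −2.34 (Aspm) to −0.54 (Incenp). Mean levels in resting KO were 19.5% (Aspm) to 68.6% (Incenp) of those in resting WT, with a median of 27.3%. Spc24, Foxm1 and Incenp were not called, at adjusted p of 0.0902, 0.11 and 0.0669. Without resting KO replicate 3 there were 50 calls, and without both resting KO replicate 3 and resting 3′F replicate 3 there were 52.

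The median over the 54 members of the log2 level relative to mean resting WT was −0.25, 0.15 and 0.050 in resting WT replicates 1 to 3, −1.74, −1.69 and −1.99 in resting KO and −0.50, −0.86 and 0.091 in resting 3′F. With LPS it was −1.66, −0.58 and −1.02 in WT, −2.05, −2.59 and −1.89 in KO and −1.01, −1.77 and −0.72 in 3′F. The KO libraries lay lowest in both states, the resting 3′F libraries spread from below resting WT to within it, and KO replicate 2 with LPS was the lowest of all. Summed over members, the level was 2652, 3545 and 3377 CPM in resting WT and 1083, 1071 and 828 in resting KO. The summed level of macrophage markers did not overlap between the genotypes at rest, with 32091 to 48036 CPM in resting WT and 60871 to 62872 in resting KO, most of it Lyz2 (82.5% to 88.7% of the sum in these 6 libraries), and neutrophil markers at 35.8 to 48.1 and 60.3 to 77.5 CPM, and the part of either in the members' difference was not tested. Without Lyz2 the sum was 5432 to 6081 CPM in resting WT and 7437 to 8073 in resting KO, while the means of Adgre1 were 1535 and 1578 CPM, of Cd68 936 and 867 and of Itgam 245 and 149.9. Of the 10 macrophage markers, 2 were called higher and 1 lower in resting KO (1 and 1 without resting KO replicate 3, 4 and 1 without both libraries that stood apart), and of the 6 neutrophil markers tested none was called (1 higher without both). The median log2 difference of the 10 macrophage markers was 0.46. Fcgr1, 1 of the 2 called higher, differed by 1.79 (adjusted p = 0.0321), and by 0.54 (adjusted p = 0.286) without resting KO replicate 3. Markers of early myeloid precursors, cells that divide in such cultures, summed to 1.51, 4.29 and 2.80 CPM in resting WT, 1.05, 0.765 and 2.36 in resting KO and 1.24, 2.43 and 8.19 in resting 3′F, and with LPS to 0.907, 2.53 and 3.96 in WT and 1.72, 2.17 and 1.85 in KO, so that WT and KO overlapped in both states. Of these 9 markers, Elane was at 0 in all 3 resting KO libraries, Mpo averaged 0.671 CPM in resting WT and 0.087 in resting KO, and Prtn3 0.424 and 0.041. The levels of the other precursor markers are not given singly here. Mpo and Ctsg alone passed the filter and neither was called, with a median log2 difference between KO and WT of −1.53 at rest and −1.29 with LPS. Without resting KO replicate 3, 4 passed and none was called, and without both libraries that stood apart Ctsg was called lower in resting KO, −3.64 ± 1.03 (SE, adjusted p = 0.0292). Between KO and WT with LPS, that same fit called 1 of the 4 higher in KO and none lower, with a median of −1.31. The part of these precursor markers in the members' difference was not tested. Between resting KO and resting WT, all 10 interferon-stimulated genes were called higher in KO, with a median log2 difference of 5.08, and without resting KO replicate 3 there were 7 called with a median of 2.09, and their part in the members' difference was not tested. Among the resting KO libraries, replicate 3 had the highest interferon-stimulated genes and the lowest members' median, −1.99 beside −1.74 and −1.69 in replicates 1 and 2.

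**Figure D2:**
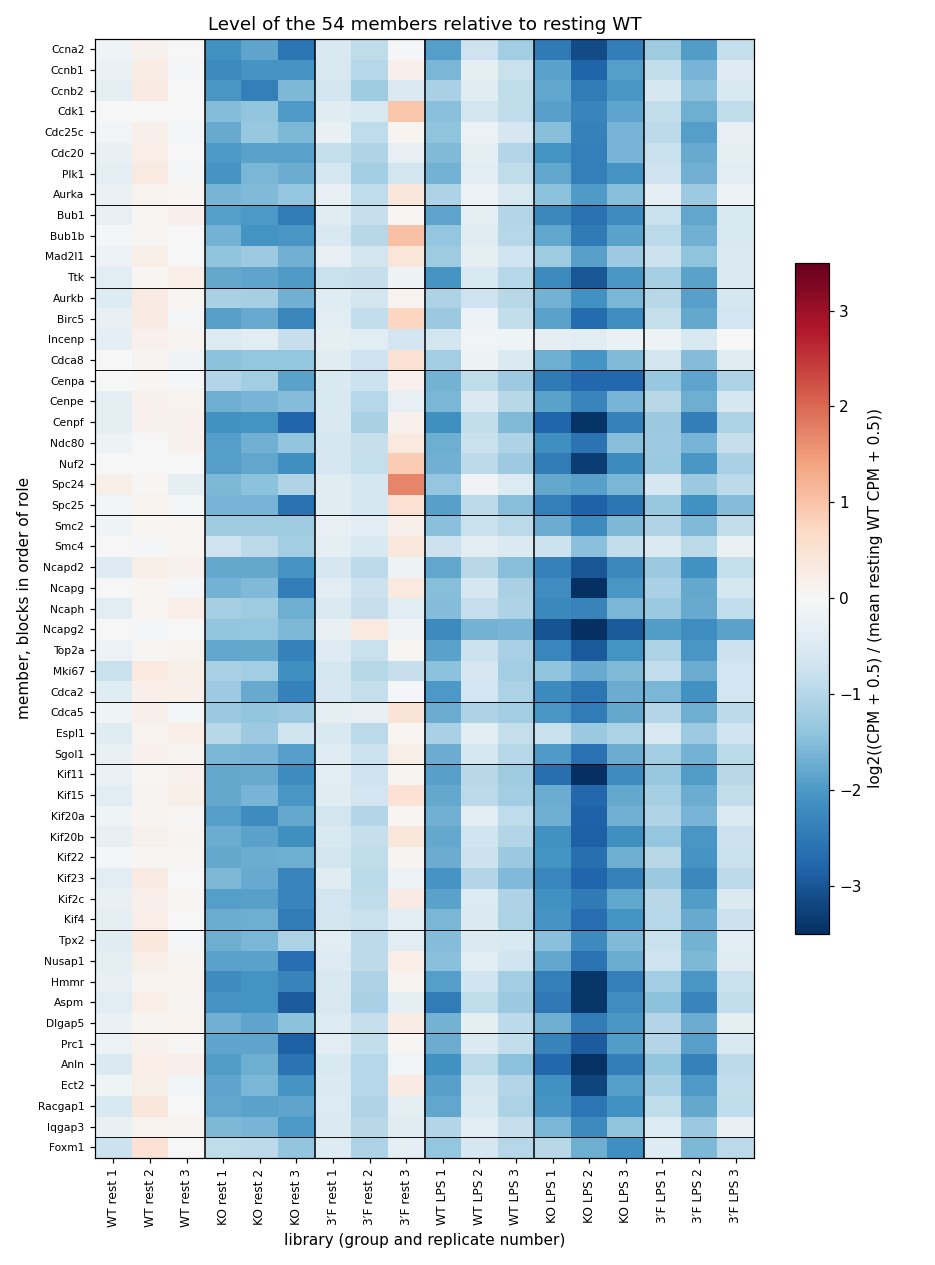
Level of each of the 54 members (rows, in blocks by role) in each of the 18 libraries (columns, by group and replicate number), as log2 of CPM plus 0.5 relative to the mean of resting WT, with blue for lower and red for higher. The 3 resting KO and 3 KO with LPS columns are blue in nearly all rows, the Incenp row stays near white, and resting 3′F replicate 3 is red in Spc24, Bub1b, Cdk1 and Nuf2.

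The cyclins, entry kinases and the exit activator were all lower in resting KO, with 8 of 8 called and a median log2 difference of −1.94. Ccnb2, a B-type cyclin that activates Cdk1, had the highest level per kb of exon of this group. Ccnb2 stood at 46.4, 70.6 and 57.0 CPM in resting WT, 13.8, 10.7 and 19.3 in resting KO and 37.1, 24.4 and 40.5 in resting 3′F. With LPS, Ccnb2 stood at 26.4, 42.7 and 31.2 CPM in WT, 16.0, 10.1 and 13.8 in KO and 38.5, 20.7 and 40.3 in 3′F. KO libraries lay below WT and 3′F in both states, resting 3′F lay below resting WT, and 3′F with LPS overlapped resting 3′F. Ccnb2 differed between KO and WT by −2.001 ± 0.29 (SE, adjusted p = 0.00149) at rest and by −1.33 ± 0.29 (SE, adjusted p = 0.0158) with LPS on the log2 scale. For Ccnb2 the difference between LPS and rest was −0.79 ± 0.28 (SE, adjusted p = 0.0438) in WT, −0.12 ± 0.30 (SE, adjusted p = 0.807) in KO and −0.030 ± 0.29 (SE, adjusted p = 0.948) in 3′F. Ccnb1 encodes the major B-type cyclin. Ccnb1 stood at 36.3, 50.7 and 40.9 CPM in resting WT, 8.72, 9.79 and 9.88 in resting KO and 29.0, 21.3 and 48.5 in resting 3′F. With LPS, Ccnb1 stood at 13.7, 33.9 and 24.6 CPM in WT, 11.2, 5.65 and 10.8 in KO and 23.4, 13.6 and 30.9 in 3′F. KO libraries lay below WT and 3′F in both states and overlapped each other with and without LPS, KO replicate 2 with LPS being lowest. Ccnb1 differed between KO and WT by −2.17 ± 0.37 (SE, adjusted p = 0.00271) at rest and by −1.38 ± 0.37 (SE, adjusted p = 0.0406) with LPS on the log2 scale. For Ccnb1 the difference between LPS and rest was −0.83 ± 0.35 (SE, adjusted p = 0.0902) in WT, −0.033 ± 0.38 (SE, adjusted p = 0.961) in KO and −0.52 ± 0.36 (SE, adjusted p = 0.282) in 3′F. Cdk1 is the kinase that drives entry into mitosis. Cdk1 stood at 77.7, 76.4 and 77.4 CPM in resting WT, 26.4, 29.2 and 18.97 in resting KO and 57.5, 52.0 and 152 in resting 3′F. With LPS, Cdk1 stood at 27.5, 49.1 and 41.1 CPM in WT, 20.4, 15.1 and 21.0 in KO and 42.4, 23.1 and 41.3 in 3′F. KO libraries lay below WT and 3′F in both states, resting WT libraries lay close together, and resting 3′F replicate 3 was the highest of all 18 while 3′F replicates 1 and 2 were below resting WT. Cdk1 differed between KO and WT by −1.63 ± 0.35 (SE, adjusted p = 0.00909) at rest and by −1.06 ± 0.35 (SE, adjusted p = 0.0963) with LPS on the log2 scale. For Cdk1 the difference between LPS and rest was −0.98 ± 0.34 (SE, adjusted p = 0.0426) in WT, −0.41 ± 0.35 (SE, adjusted p = 0.429) in KO and −1.27 ± 0.35 (SE, adjusted p = 0.0112) in 3′F. Without resting 3′F replicate 3 the LPS response of Cdk1 in 3′F was −0.67.

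Of the same group, Ccna2 (cyclin A2), Cdc20 (which activates the APC/C) and the kinase Plk1 differed by −2.16, −2.001 and −1.89 between resting KO and resting WT, and Cdc25c, the phosphatase that activates Cdk1, and Aurka, the centrosome kinase, by −1.74 and −1.55. With LPS, only Ccna2, Ccnb1 and Ccnb2 of the 8 were called between KO and WT.

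The 4 genes of the spindle checkpoint were all called lower in resting KO, with a median of −1.97. Bub1b (BubR1) inhibits the APC/C until chromosomes are attached and had the highest level per kb of exon. Bub1b stood at 72.9, 77.3 and 75.7 CPM in resting WT, 23.4, 17.4 and 18.1 in resting KO and 52.2, 38.4 and 154 in resting 3′F. With LPS, Bub1b stood at 29.4, 55.9 and 37.3 CPM in WT, 20.9, 13.1 and 20.3 in KO and 38.8, 23.0 and 51.3 in 3′F. The KO libraries lay below those of WT and 3′F in both states, and resting 3′F replicate 3 had the highest level of all. Bub1b differed between KO and WT by −1.94 ± 0.42 (SE, adjusted p = 0.00933) at rest and by −1.17 ± 0.41 (SE, adjusted p = 0.12) with LPS on the log2 scale. For Bub1b the difference between LPS and rest was −0.88 ± 0.40 (SE, adjusted p = 0.117) in WT, −0.12 ± 0.42 (SE, adjusted p = 0.869) in KO and −1.09 ± 0.41 (SE, adjusted p = 0.0534) in 3′F. Without resting 3′F replicate 3 the LPS response of Bub1b in 3′F was −0.32. The checkpoint kinases Bub1 and Ttk differed by −2.15 and −1.995 between resting KO and resting WT, and Mad2l1 (Mad2), which sequesters Cdc20, by −1.48. With LPS, Bub1 was called and the other 3 were not.

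The log2 differences between resting KO and resting WT were most spread in the chromosomal passenger complex, of which 3 of 4 members were called. Incenp is the scaffold that holds the kinase Aurkb at the centromere, and it had the highest level per kb of exon of the 4. Incenp stood at 44.7, 61.7 and 59.5 CPM in resting WT, 39.5, 42.7 and 31.7 in resting KO and 44.3, 43.1 and 34.4 in resting 3′F. With LPS, Incenp stood at 35.3, 51.5 and 50.1 CPM in WT, 44.6, 42.8 and 47.0 in KO and 48.4, 37.5 and 55.3 in 3′F. The resting KO and resting 3′F libraries lay below those of resting WT, and with LPS all 3 genotypes overlapped. Incenp differed between KO and WT by −0.54 ± 0.18 (SE, adjusted p = 0.0669) at rest and by −0.027 ± 0.18 (SE, adjusted p = 0.967) with LPS on the log2 scale. For Incenp the difference between LPS and rest was −0.28 ± 0.18 (SE, adjusted p = 0.266) in WT, 0.24 ± 0.18 (SE, adjusted p = 0.351) in KO and 0.20 ± 0.18 (SE, adjusted p = 0.418) in 3′F. Its partners Birc5 (survivin), Cdca8 (borealin) and Aurkb differed by −2.03, −1.42 and −1.34 between resting KO and resting WT, and these 3 were called. With LPS, Birc5 and Cdca8 were called between KO and WT, at −1.56 and −1.22.

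Of 7 centromere and kinetochore genes, 6 were called lower in resting KO, with a median of −1.70. Cenpa is the histone H3 variant that marks centromeres. Cenpa stood at 53.9, 54.3 and 51.2 CPM in resting WT, 25.9, 22.4 and 14.1 in resting KO and 36.3, 31.4 and 58.8 in resting 3′F. With LPS, Cenpa stood at 16.5, 28.4 and 21.7 CPM in WT, 9.23, 7.46 and 7.49 in KO and 20.7, 14.4 and 24.8 in 3′F. Cenpa was lowest in KO with LPS, where its 3 libraries lay below all others. Cenpa differed between KO and WT by −1.34 ± 0.26 (SE, adjusted p = 0.00534) at rest and by −1.46 ± 0.27 (SE, adjusted p = 0.00612) with LPS on the log2 scale. For Cenpa the difference between LPS and rest was −1.26 ± 0.26 (SE, adjusted p = 0.00183) in WT, −1.38 ± 0.27 (SE, adjusted p = 0.00136) in KO and −1.07 ± 0.26 (SE, adjusted p = 0.00611) in 3′F. Cenpf differed by −2.31 between resting KO and resting WT, and the kinetochore motor Cenpe by −1.63. The 4 subunits of the Ndc80 complex, which binds microtubules, differed by −2.0004 (Nuf2), −1.93 (Spc25), −1.70 (Ndc80) and −1.47 (Spc24), of which Spc24 was not called.

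All 9 condensin and chromosome structure genes were called lower in resting KO, with a median of −1.43. Smc4, a core subunit of condensin, had the highest level per kb of exon of all 54 members, just above Top2a. Smc4 stood at 189, 184 and 201 CPM in resting WT, 115, 100.4 and 82.0 in resting KO and 150.3, 132 and 247 in resting 3′F. With LPS, Smc4 stood at 113, 149 and 135 CPM in WT, 114, 69.5 and 105 in KO and 135, 98.9 and 162 in 3′F. Resting KO libraries lay below resting WT and 3′F, and with LPS replicate 1 of KO and replicate 1 of WT were at about the same level. Smc4 differed between KO and WT by −0.95 ± 0.24 (SE, adjusted p = 0.0192) at rest and by −0.46 ± 0.23 (SE, adjusted p = 0.33) with LPS on the log2 scale. For Smc4 the difference between LPS and rest was −0.53 ± 0.23 (SE, adjusted p = 0.103) in WT, −0.043 ± 0.23 (SE, adjusted p = 0.916) in KO and −0.42 ± 0.23 (SE, adjusted p = 0.187) in 3′F. Top2a is the topoisomerase that untangles chromosomes. Top2a stood at 274, 327 and 346 CPM in resting WT, 88.7, 91.5 and 60.5 in resting KO and 229, 183 and 327 in resting 3′F. With LPS, Top2a stood at 85.3, 188 and 143 CPM in WT, 64.7, 40.9 and 73.2 in KO and 146, 77.2 and 186 in 3′F. KO libraries lay below WT and 3′F libraries in both states. Top2a differed between KO and WT by −1.97 ± 0.34 (SE, adjusted p = 0.00271) at rest and by −1.22 ± 0.33 (SE, adjusted p = 0.0444) with LPS on the log2 scale. For Top2a the difference between LPS and rest was −1.19 ± 0.33 (SE, adjusted p = 0.0126) in WT, −0.43 ± 0.33 (SE, adjusted p = 0.36) in KO and −0.85 ± 0.33 (SE, adjusted p = 0.0577) in 3′F. Mki67 encodes the proliferation marker Ki-67, which coats mitotic chromosomes. Mki67 stood at 205, 441 and 401 CPM in resting WT, 159, 151 and 78.8 in resting KO and 228, 173 and 198 in resting 3′F. With LPS, Mki67 stood at 128, 230.1 and 150.4 CPM in WT, 131, 103 and 118 in KO and 191, 104 and 218 in 3′F. Resting KO libraries lay below resting WT and 3′F, resting WT replicate 1 was far below the other resting WT libraries, and KO libraries with LPS overlapped those of WT and 3′F. Mki67 differed between KO and WT by −1.42 ± 0.33 (SE, adjusted p = 0.0127) at rest and by −0.53 ± 0.32 (SE, adjusted p = 0.44) with LPS on the log2 scale. For Mki67 the difference between LPS and rest was −1.04 ± 0.32 (SE, adjusted p = 0.0243) in WT, −0.15 ± 0.32 (SE, adjusted p = 0.782) in KO and −0.23 ± 0.32 (SE, adjusted p = 0.626) in 3′F.

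Ncapg2, a subunit of condensin II, had the largest LPS response of the 54 in each genotype. Ncapg2 stood at 74.0, 71.7 and 74.9 CPM in resting WT, 28.2, 28.8 and 24.6 in resting KO and 61.9, 93.6 and 67.2 in resting 3′F. With LPS, Ncapg2 stood at 15.2, 22.9 and 23.5 CPM in WT, 8.61, 5.58 and 9.13 in KO and 18.5, 15.8 and 19.6 in 3′F. In each genotype the libraries with LPS lay below the resting ones, and the 3 KO libraries lay below those of WT and 3′F in both states. Its LPS response was −1.84 ± 0.19 (SE, adjusted p = 4.75e-06) in WT, −1.81 ± 0.20 (SE, adjusted p = 7.67e-06) in KO and −2.06 ± 0.20 (SE, adjusted p = 1.64e-06) in 3′F. Of the condensin I subunits, Ncapd2, Ncapg and Ncaph differed by −1.91, −1.86 and −1.37 between resting KO and resting WT, Smc2 by −1.25, and Cdca2 (Repo-Man), which targets a phosphatase to chromosomes, by −1.79.

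All 3 cohesion and separation genes were called lower in resting KO. Cdca5 (sororin) protects cohesin until mitosis. Cdca5 stood at 9.59, 12.1 and 10.2 CPM in resting WT, 4.02, 3.75 and 4.04 in resting KO and 8.52, 8.81 and 14.7 in resting 3′F. With LPS, Cdca5 stood at 2.86, 4.78 and 4.25 CPM in WT, 2.20, 1.52 and 2.71 in KO and 4.98, 2.90 and 5.39 in 3′F. KO libraries lay below WT and 3′F in both states, and resting KO overlapped WT with LPS. Cdca5 differed between KO and WT by −1.43 ± 0.27 (SE, adjusted p = 0.0046) at rest and by −0.88 ± 0.29 (SE, adjusted p = 0.0979) with LPS on the log2 scale. For Cdca5 the difference between LPS and rest was −1.42 ± 0.27 (SE, adjusted p = 0.000949) in WT, −0.87 ± 0.30 (SE, adjusted p = 0.0391) in KO and −1.25 ± 0.27 (SE, adjusted p = 0.0027) in 3′F. Espl1 (separase), the protease that cuts cohesin, differed by −1.02 ± 0.29 (SE, adjusted p = 0.037) between resting KO and resting WT and Sgol1 (shugoshin), which protects centromeric cohesin, by −1.85.

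The 8 spindle motors were all called lower in resting KO, over a narrow range from −2.09 to −1.82. Kif20a is a kinesin of the central spindle. Kif20a stood at 58.6, 69.6 and 66.2 CPM in resting WT, 16.5, 13.7 and 18.3 in resting KO and 41.0, 31.8 and 68.1 in resting 3′F. With LPS, Kif20a stood at 19.7, 49.1 and 35.0 CPM in WT, 19.4, 8.62 and 19.7 in KO and 31.2, 20.5 and 45.5 in 3′F. KO libraries lay below WT and 3′F in both states, with LPS only just so for WT replicate 1, and KO replicate 2 with LPS was the lowest. Kif20a differed between KO and WT by −2.01 ± 0.37 (SE, adjusted p = 0.00423) at rest and by −1.12 ± 0.37 (SE, adjusted p = 0.092) with LPS on the log2 scale. For Kif20a the difference between LPS and rest was −0.90 ± 0.36 (SE, adjusted p = 0.0699) in WT, −0.020 ± 0.37 (SE, adjusted p = 0.975) in KO and −0.52 ± 0.36 (SE, adjusted p = 0.286) in 3′F. The other motors were Kif2c (−2.09), which takes microtubules apart at the centromere, Kif4 (−1.97), Kif20b (−1.93), Kif11 (−1.92), which pushes the spindle poles apart, Kif23 (−1.87) of the central spindle, Kif15 (−1.86) and Kif22 (−1.82), each given as the log2 difference between resting KO and resting WT.

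All 5 spindle assembly factors were called lower in resting KO, with the lowest median of the groups, −2.12. Hmmr organizes microtubules at the spindle poles. Hmmr stood at 47.4, 63.3 and 63.9 CPM in resting WT, 12.4, 13.4 and 11.003 in resting KO and 39.5, 27.3 and 61.8 in resting 3′F. With LPS, Hmmr stood at 14.9, 35.5 and 24.6 CPM in WT, 10.7, 4.996 and 10.6 in KO and 24.8, 13.8 and 33.5 in 3′F. KO libraries lay below WT and 3′F in both states. Hmmr differed between KO and WT by −2.24 ± 0.38 (SE, adjusted p = 0.00271) at rest and by −1.51 ± 0.38 (SE, adjusted p = 0.0322) with LPS on the log2 scale. For Hmmr the difference between LPS and rest was −1.22 ± 0.36 (SE, adjusted p = 0.018) in WT, −0.48 ± 0.38 (SE, adjusted p = 0.382) in KO and −0.83 ± 0.36 (SE, adjusted p = 0.0958) in 3′F. Aspm, a spindle pole protein, had the largest difference of all members, −2.34 ± 0.43 (SE, adjusted p = 0.00402), and Cenpf came next with −2.31 ± 0.41 (SE, adjusted p = 0.0033). Nusap1, Dlgap5 and Tpx2, which bundle or nucleate spindle microtubules, differed by −2.12, −1.70 and −1.48.

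All 5 cytokinesis genes were called lower in resting KO, with a median of −1.88. Prc1 bundles the microtubules of the central spindle. Prc1 stood at 72.8, 93.9 and 87.6 CPM in resting WT, 23.2, 23.4 and 11.2 in resting KO and 65.7, 46.8 and 87.8 in resting 3′F. With LPS, Prc1 stood at 25.1, 59.4 and 46.6 CPM in WT, 16.4, 10.9 and 21.5 in KO and 41.3, 22.5 and 57.8 in 3′F. KO libraries lay below WT and 3′F in both states, and resting KO replicate 3 was below the other two. Prc1 differed between KO and WT by −2.12 ± 0.38 (SE, adjusted p = 0.00367) at rest and by −1.43 ± 0.38 (SE, adjusted p = 0.0415) with LPS on the log2 scale. For Prc1 the difference between LPS and rest was −0.96 ± 0.37 (SE, adjusted p = 0.0625) in WT, −0.26 ± 0.38 (SE, adjusted p = 0.659) in KO and −0.72 ± 0.37 (SE, adjusted p = 0.15) in 3′F. Anln (anillin), which organizes the contractile ring, Racgap1 and Ect2, which act at the cleavage furrow, and Iqgap3 differed by −2.05, −1.88, −1.86 and −1.74 between resting KO and resting WT. Foxm1, the transcription factor of late cell cycle genes, was measured at the lowest counts. Foxm1 stood at 2.69, 7.23 and 4.83 CPM in resting WT, 2.41, 2.37 and 1.57 in resting KO and 3.44, 2.09 and 3.75 in resting 3′F. With LPS, Foxm1 stood at 1.61, 3.14 and 2.20 CPM in WT, 2.27, 1.16 and 0.713 in KO and 3.44, 1.31 and 2.31 in 3′F. Resting KO libraries lay below resting WT by a small margin, and with LPS the genotypes overlapped. Foxm1 differed between KO and WT by −1.18 ± 0.44 (SE, adjusted p = 0.11) at rest and by −0.74 ± 0.47 (SE, adjusted p = 0.467) with LPS on the log2 scale. For Foxm1 the difference between LPS and rest was −1.08 ± 0.44 (SE, adjusted p = 0.0764) in WT, −0.63 ± 0.48 (SE, adjusted p = 0.361) in KO and −0.36 ± 0.46 (SE, adjusted p = 0.582) in 3′F. The call of Mki67 between resting KO and resting WT ended when WT replicate 2 was left out. For Espl1 it ended on omitting WT replicate 2 or 3 or KO replicate 1 or 2, and for Smc4 on omitting any of the WT replicates or KO replicate 3. Incenp was called without resting WT replicate 1.

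**Figure D3:**
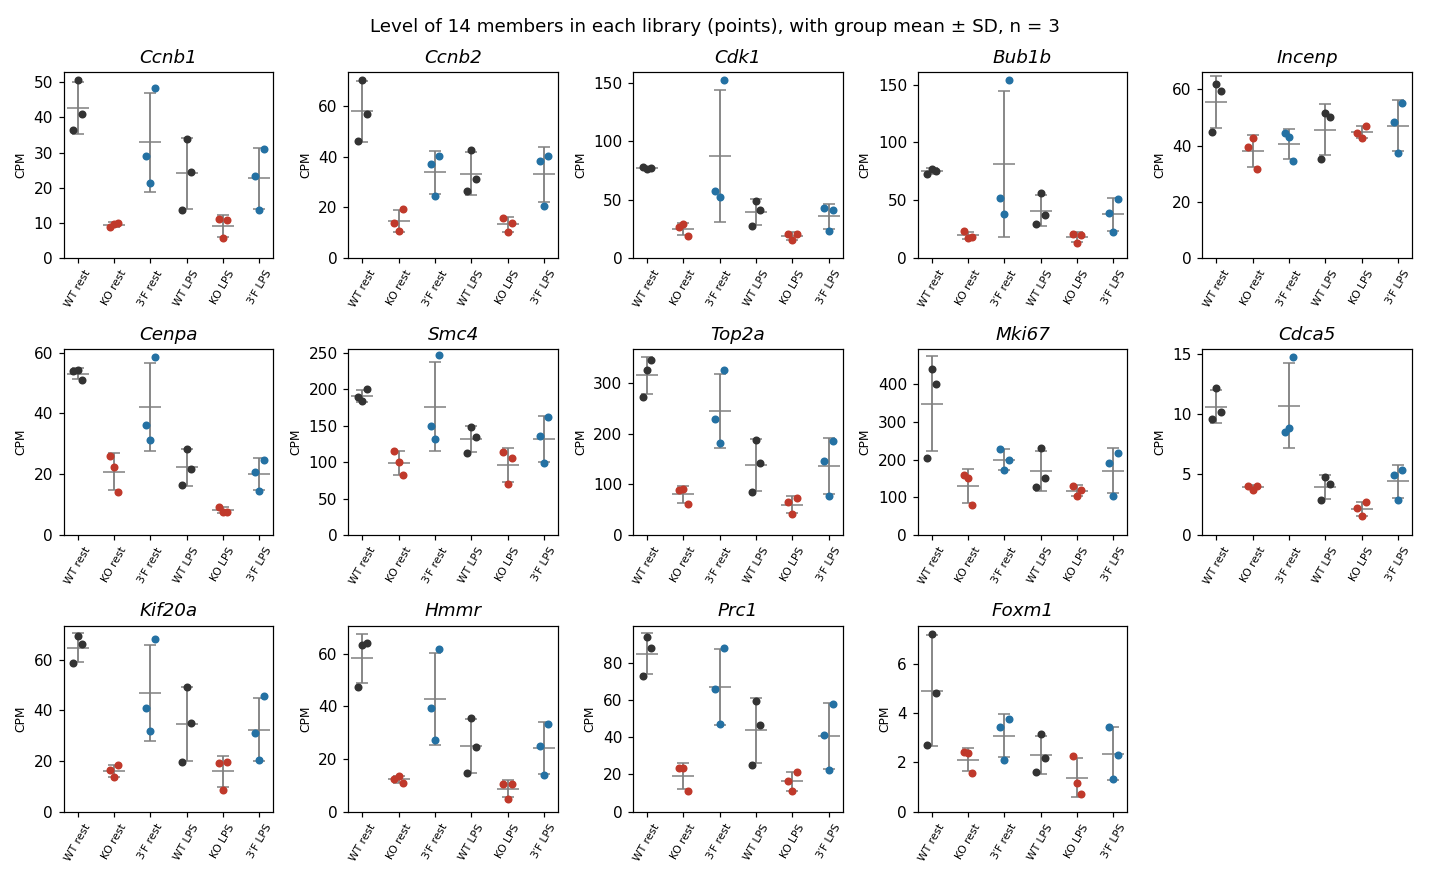
Level of 14 members in CPM (vertical axis) in each library (points) of the 6 groups, WT in black, KO in red and 3′F in blue, with the group mean and SD of 3 libraries in grey. KO points lie below WT points at rest in all 14 panels, with the smallest log2 difference, −0.54, in Incenp.

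With LPS, 20 of 54 members were called lower in KO than in WT and none higher, beside 2.9% of all genes tested called lower, and in 40 the KO libraries lay below all WT libraries, beside 16.1% of all genes tested. The median log2 difference was −1.20, and 54 of 54 differences were below 0. The largest were those of Birc5, −1.56 ± 0.41 (SE, adjusted p = 0.0384), Ncapg, −1.51 ± 0.42 (SE, adjusted p = 0.047), and Hmmr. The smallest were those of Incenp, Espl1, −0.31 ± 0.29 (SE, adjusted p = 0.656), and Smc4. The count depended on single libraries, with 34 calls without WT replicate 1 with LPS, 2 without WT replicate 2, 5 without WT replicate 3, and 3, 2 and 8 without KO replicates 1, 2 and 3 with LPS, while the median stayed between −1.46 and −0.88. Leaving out any of these but WT replicate 1 ended the calls of Birc5, Ncapg, Hmmr, Prc1, Top2a and Ccnb1, and the call of Ccnb2 ended without KO or WT replicate 2, while Kif20a was called without WT replicate 1. With no filter on low counts 35 were called, and DESeq2 called 41. The 2.9% of all genes tested belongs to the main fit and not to these alternatives.

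**Figure D4:**
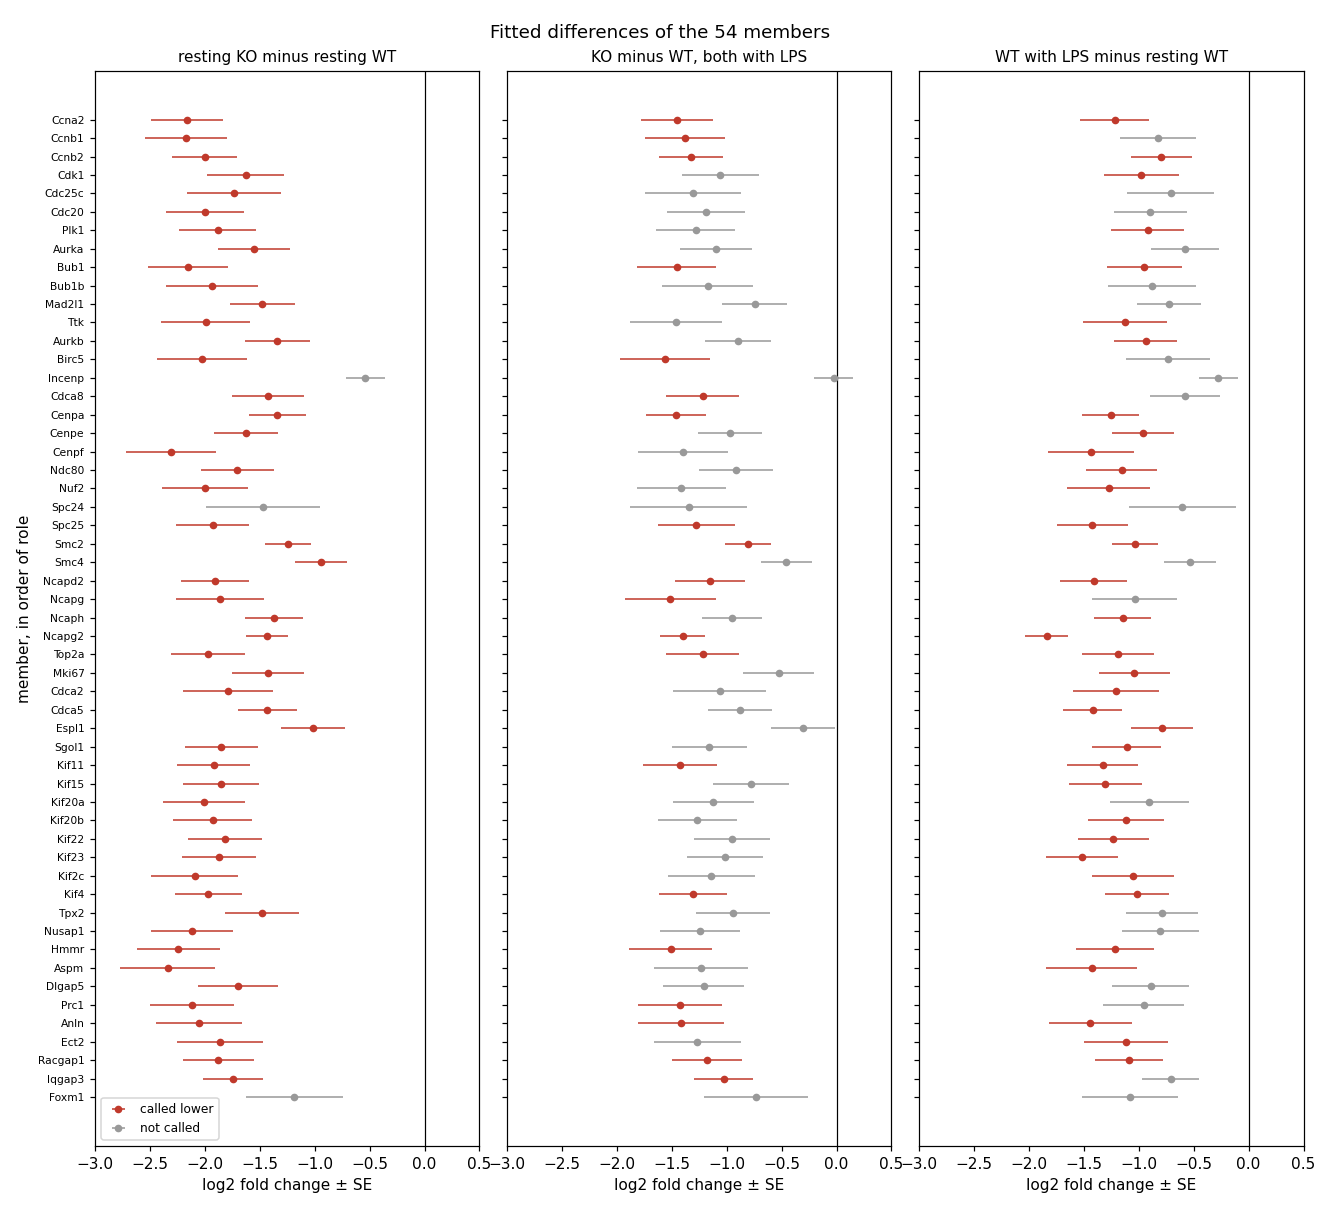
Log2 fold change with SE (horizontal axis) of each of the 54 members (vertical axis, by role) between resting KO and resting WT, between KO and WT with LPS, and between WT with LPS and resting WT, in red where called lower and in grey where not. The resting KO points lie between −2.34 and −0.54, and in the LPS response of WT Ncapg2 is lowest at −1.84.

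Most members were lower in WT with LPS than at rest. Of 54, 35 were called lower with LPS and none higher, beside 12.3% of all genes tested called lower, with no overlap in 47 (beside 21.6%) and a median of −1.04. After Ncapg2, the largest responses were those of Kif23, −1.52 ± 0.33 (SE, adjusted p = 0.00265), and Anln, −1.44 ± 0.38 (SE, adjusted p = 0.00935), and the smallest those of Incenp, Smc4 and Cdca8, −0.58 ± 0.32 (SE, adjusted p = 0.189). Called members included 7 of 8 motors, 7 of 9 condensin and chromosome structure genes, 6 of 7 kinetochore genes and 3 of 3 cohesion genes, and 4 of 8 cyclins and kinases, 2 of 4 checkpoint, 2 of 5 spindle assembly, 3 of 5 cytokinesis and 1 of 4 passenger genes. There were 11 calls without WT replicate 1 with LPS, 17 without WT replicate 3 with LPS, 17 without resting WT replicate 2 and 21 without resting WT replicate 3. Each of these 4 omissions ended the calls of Ccnb2, Hmmr, Mki67 and Cdk1, that of WT replicate 1 with LPS also those of Anln and Top2a, and leaving out resting WT replicate 1 ended that of Cdk1 and gave one of Foxm1. Without WT replicate 2 with LPS, Prc1, Kif20a and Ccnb1 were called too, and limma-voom with quality weights called all 54. With the replicate number as a block, which pairs resting and LPS libraries by number, 51 were called. Leaving out the 2 libraries that stood apart, which are not WT but enter the shared estimate of spread, gave 47 calls here and 41 for KO against WT with LPS. The 12.3% of all genes tested belongs to the main fit and not to these alternatives.

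In KO, 4 members were called lower with LPS, Ncapg2, Cenpa, Cdca5 and Smc2, beside 12.6% of all genes tested, and none higher. The median was −0.38, and groups did not overlap, with LPS lower, in 12 members, beside 18.8% of all genes tested. The smallest responses were those of Iqgap3, 0.0039 ± 0.28 (SE, adjusted p = 0.993), Mad2l1, 0.0074 ± 0.30 (SE, adjusted p = 0.989), and Kif20a. In Incenp the KO libraries with LPS lay above those at rest, with no call. Only 2 were called without replicate 1 or 2 of either KO group, and Cdca5 lost its call without any 1 KO library other than replicate 3 with LPS. Without KO replicate 3 with LPS there were 6, and without both libraries that stood apart 10, while limma-voom with quality weights called 8. A replicate block also called 8.

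In 3′F, 16 members were called lower with LPS and none higher, beside 14% of all genes tested, with a median of −0.77 and no overlap in 12, beside 20.1%. The largest responses after Ncapg2 were those of Spc25, −1.57 ± 0.34 (SE, adjusted p = 0.00233), and Spc24, −1.52 ± 0.52 (SE, adjusted p = 0.0346), and the smallest those of Iqgap3, 0.0054 ± 0.27 (SE, adjusted p = 0.99), Ccnb2 and Plk1, −0.044 ± 0.35 (SE, adjusted p = 0.937). Of the 16, 6 were kinetochore genes (Spc25, Spc24, Nuf2, Cenpf, Cenpa and Ndc80), 4 were motors (Kif15, Kif20b, Kif11 and Kif23) and the others were Ncapg2, Smc2, Ncaph, Cdca5, Sgol1 and Cdk1. There were 5 calls without 3′F replicate 2 with LPS, 6 without resting 3′F replicate 3, 7 without 3′F replicate 1 with LPS, 25 without 3′F replicate 3 with LPS and 26 without resting 3′F replicate 2, and 8 without both libraries that stood apart. A fit of the 2 groups alone called 7, DESeq2 called 25 and a replicate block called 32. The call of Spc24 was lost without resting 3′F replicate 3 or any 1 of the 3′F libraries with LPS, and that of Cdk1 without resting 3′F replicate 3 or 3′F replicate 2 with LPS. Without resting 3′F replicate 3 the LPS response was −0.47 for Spc24 and −0.67 for Cdk1. Omitting resting 3′F replicate 2 added calls of Bub1b, Top2a and Hmmr, omitting 3′F replicate 3 with LPS those of Bub1b and Top2a, and omitting resting 3′F replicate 1 that of Bub1b.

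Whether the responses differ between genotypes was tested as an interaction. The LPS response of KO minus that of WT was above 0 in 53 of 54 members, with a median of 0.66, and edgeR called 0 members, beside 0.00881% of all genes tested, as DESeq2 and limma also called 0 members. At an unadjusted p under 0.05 there was 1 member, Kif15, and 560 genes in all. The largest differences were those of Aspm, 1.11 ± 0.60 (SE, adjusted p = 1), Kif15, 1.08 ± 0.49 (SE, adjusted p = 0.969), and Kif2c, 0.95 ± 0.56 (SE, adjusted p = 1), and the smallest those of Ncapg2, 0.033 ± 0.28 (SE, adjusted p = 1), Cenpa, −0.12 ± 0.37 (SE, adjusted p = 1), and Spc24, 0.12 ± 0.75 (SE, adjusted p = 1). For 3′F minus WT the median was 0.30, with 45 of 54 above 0, and 0 were called, beside 0% of all genes tested, with 0 members and 203 genes at an unadjusted p under 0.05. Here the largest differences were those of Spc24, −0.91 ± 0.71 (SE, adjusted p = 0.975), Plk1, 0.87 ± 0.48 (SE, adjusted p = 0.975), and Mki67, 0.82 ± 0.46 (SE, adjusted p = 0.975). The smallest were those of Mad2l1, −0.023 ± 0.41 (SE, adjusted p = 0.999), Cdc25c, 0.029 ± 0.59 (SE, adjusted p = 0.999), and Kif20b, 0.037 ± 0.49 (SE, adjusted p = 0.998). Without resting 3′F replicate 3, the difference of Spc24 was 0.17. Both interactions use the same WT libraries.

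No member was called different between resting 3′F and resting WT. By edgeR 0 members were called, beside 0% of all genes tested, DESeq2 and limma also called 0 members, and 8 members and 557 genes had an unadjusted p under 0.05, all 8 of them lower in 3′F (Ccnb2, Cdc20, Plk1, Incenp, Ncaph, Mki67, Kif4 and Iqgap3). The median log2 difference was −0.38, with 50 of 54 below 0, and without resting 3′F replicate 3 it was −0.68. The largest differences were those of Plk1, −0.84 ± 0.34 (SE, adjusted p = 0.843), Mki67, −0.80 ± 0.32 (SE, adjusted p = 0.843), and Ccnb2, −0.79 ± 0.28 (SE, adjusted p = 0.843), and the smallest those of Ncapg2, 0.017 ± 0.19 (SE, adjusted p = 0.995), Nuf2, −0.020 ± 0.37 (SE, adjusted p = 0.996), and Cdca5, −0.042 ± 0.26 (SE, adjusted p = 0.988). Without resting 3′F replicate 3 the difference of Nuf2 was −0.71. With LPS, 0 members were called between 3′F and WT by any of the 3 tools, beside 0.00881% of all genes tested by edgeR, and 0 members and 106 genes had an unadjusted p under 0.05. The median there was −0.085, and the largest differences were those of Spc24, −0.38 ± 0.51 (SE, adjusted p = 1), Cdc25c, −0.35 ± 0.42 (SE, adjusted p = 1), and Birc5, −0.34 ± 0.39 (SE, adjusted p = 1). Nearest 0 were Kif22, −0.0045 ± 0.33 (SE, adjusted p = 1), Smc4, −0.0058 ± 0.23 (SE, adjusted p = 1), and Foxm1, 0.0063 ± 0.46 (SE, adjusted p = 1).

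Between resting KO and resting 3′F, 45 of 54 members were called lower in KO and none higher, beside 6.1% of all genes tested, with a median of −1.39 and no overlap in 51 (beside 14%). The largest differences were those of Bub1b, −2.02 ± 0.42 (SE, adjusted p = 0.00891), Spc24, −1.999 ± 0.53 (SE, adjusted p = 0.0237), and Nuf2, −1.98 ± 0.40 (SE, adjusted p = 0.00754), and the smallest those of Incenp, −0.10 ± 0.18 (SE, adjusted p = 0.719), Foxm1, −0.47 ± 0.46 (SE, adjusted p = 0.504), and Espl1, −0.54 ± 0.30 (SE, adjusted p = 0.226). This count rests on the spread estimated over all 6 groups, since a fit of the 2 groups alone called 0 members (16 genes in all), and without resting 3′F replicate 3 there were 21 calls and without that library and resting KO replicate 3 there were 8. Without resting 3′F replicate 3 the differences were −1.19 for Bub1b, −0.90 for Spc24 and −1.28 for Nuf2, and the call of Spc24 was lost, as it was without resting KO replicate 1 or 2. With LPS 10 of 54 were called lower in KO than in 3′F and none higher, beside 2.37% of all genes tested, namely Hmmr, Bub1, Ccna2, Kif11, Ccnb2, Cenpa, Ncapg2, Ncapd2, Kif4 and Iqgap3, with a median of −1.10 and no overlap in 33 (beside 14.9%). Largest were Hmmr, −1.43 ± 0.38 (SE, adjusted p = 0.0463), Bub1, −1.43 ± 0.36 (SE, adjusted p = 0.0382), and Ttk, −1.42 ± 0.43 (SE, adjusted p = 0.0783), and smallest Incenp, −0.066 ± 0.18 (SE, adjusted p = 0.91), Espl1, −0.24 ± 0.29 (SE, adjusted p = 0.771), and Smc4, −0.45 ± 0.23 (SE, adjusted p = 0.364). There were 27 calls without 3′F replicate 2 with LPS, 1 without 3′F replicate 1 or 3 or KO replicate 2 with LPS, and 3 without KO replicate 1 or 3 with LPS. The calls of Hmmr and Bub1 were lost in each of these but the first, in which Ttk was called, and without the 2 libraries that stood apart there were 32 calls. With no filter on low counts 23 were called, a fit of the 2 groups alone called 34, DESeq2 32 and limma-voom 28. These comparisons share the KO libraries with those of KO against WT.

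Other cell cycle genes were taken in lists by function. Of 37 S phase genes, all tested, 10 were called lower in resting KO and none higher, with a median of −0.53, beside 4.27% of all genes tested called lower. With LPS 19 were called lower in KO than in WT, with a median of −0.77, beside 2.9% of all genes tested. Between LPS and rest, 22 of them were called lower with LPS in WT (median −0.77), 26 in KO (−0.84) and 28 in 3′F (−0.87). The shares of all genes tested were 12.3%, 12.6% and 14%. Without resting KO replicate 3, 8 were called lower in resting KO and 22 in KO with LPS, and without both libraries that stood apart 16 and 28. S phase genes had more calls between KO and WT with LPS than at rest and the members had fewer, and this difference between the lists was not tested. The largest differences in resting KO were those of Rrm2, the small subunit of ribonucleotide reductase, −1.74 ± 0.31 (SE, adjusted p = 0.00362), the thymidine kinase Tk1, −1.502 ± 0.30 (SE, adjusted p = 0.00678), and Clspn (claspin) of the replication checkpoint, −1.14 ± 0.28 (SE, adjusted p = 0.0176). Pcna, the polymerase clamp, was not called between resting KO and resting WT, −0.24 ± 0.19 (SE, adjusted p = 0.492), nor was Mcm5, a subunit of the replicative helicase, −0.56 ± 0.21 (SE, adjusted p = 0.123), which was called with LPS, −1.25 ± 0.22 (SE, adjusted p = 0.00483). Without resting KO replicate 3, the resting difference of Clspn was −1.005 ± 0.30 (SE, adjusted p = 0.0556) and that of Pcna −0.56 ± 0.14 (SE, adjusted p = 0.0264). Between KO and WT with LPS, Pcna differed by −0.599 (adjusted p = 0.0782), and without that library by −0.601 ± 0.126 (SE, adjusted p = 0.00867).

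The median of 24 genes of the APC/C and of cohesin, which act in mitosis but are made through the cycle, was −0.10 between resting KO and resting WT and −0.092 in the LPS response of WT. Of these 24, 1 was called lower in resting KO, beside 4.27% of all genes tested. It was the cohesin subunit Rad21, −0.50 ± 0.11 (SE, adjusted p = 0.0123), and without resting KO replicate 3 the APC/C subunit Anapc5 was called too, −0.63 ± 0.13 (SE, adjusted p = 0.00896). Among 9 G1 cyclins and their kinases, Ccne2 (cyclin E2), −1.04 ± 0.26 (SE, adjusted p = 0.0211), and Cdk4, −0.37 ± 0.11 (SE, adjusted p = 0.0422), were called lower in resting KO, 2 of 9 beside the same 4.27%. Ccne1 (cyclin E1) and Ccnd1 (cyclin D1) were not, −0.83 ± 0.27 (SE, adjusted p = 0.0697) and −0.27 ± 0.15 (SE, adjusted p = 0.326), and Ccnd1 was called lower in KO with LPS, −1.62 ± 0.16 (SE, adjusted p = 3.01e-05). Ccnd2 (cyclin D2) had a wide error, 1.74 ± 0.81 (SE, adjusted p = 0.208), and turned to −0.17 ± 0.65 (SE, adjusted p = 0.917) without resting KO replicate 3. Leaving out that library also ended the calls of Ccne2 (−0.84, adjusted p = 0.0659) and Cdk4 (−0.31, adjusted p = 0.127) and gave one of Ccnd1 (−0.52, adjusted p = 0.0143), and with both libraries that stood apart left out Ccne2 was called again.

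Of 7 inhibitors of cyclin-dependent kinases, 2 were called lower and none higher in resting KO, beside 4.27% of all genes tested called lower. Cdkn1a (p21) and Cdkn1b (p27), which hold cells out of the cycle, differed by 0.26 ± 0.17 (SE, adjusted p = 0.404) and −0.026 ± 0.10 (SE, adjusted p = 0.914), and with LPS by 0.35 ± 0.17 (SE, adjusted p = 0.295) and −0.081 ± 0.10 (SE, adjusted p = 0.742). Cdkn2c (p18) and Cdkn2d (p19), inhibitors of Cdk4 and Cdk6, were called lower, −1.13 ± 0.21 (SE, adjusted p = 0.00484) and −0.89 ± 0.25 (SE, adjusted p = 0.0347). Without resting KO replicate 3, Cdkn1c (p57) was called lower as well, −1.26 ± 0.35 (SE, adjusted p = 0.0393), and without both libraries that stood apart Cdkn2b (p15) was called higher, 1.84 ± 0.54 (SE, adjusted p = 0.0324). Of 20 genes of Rb, E2F and MuvB, 3 were called lower in resting KO, beside the same 4.27% of all genes tested. These were the repressors E2f7, −1.93 ± 0.53 (SE, adjusted p = 0.0323), and E2f8, −1.03 ± 0.23 (SE, adjusted p = 0.0117), and Lin9 of MuvB, −0.54 ± 0.16 (SE, adjusted p = 0.0487). Without resting KO replicate 3, E2f7 (−1.599, adjusted p = 0.0825) and Lin9 (−0.55, adjusted p = 0.0845) were not called, and without both libraries that stood apart both were. Mybl2 (B-Myb), which switches MuvB to activation, was not called at rest, −0.51 ± 0.36 (SE, adjusted p = 0.438), and was called lower in KO with LPS, −1.60 ± 0.44 (SE, adjusted p = 0.0486), while E2f1 and Rbl1 (p107) were called in neither state, −0.37 ± 0.14 (SE, adjusted p = 0.114) and 0.12 ± 0.28 (SE, adjusted p = 0.855) at rest.

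**Figure D5:**
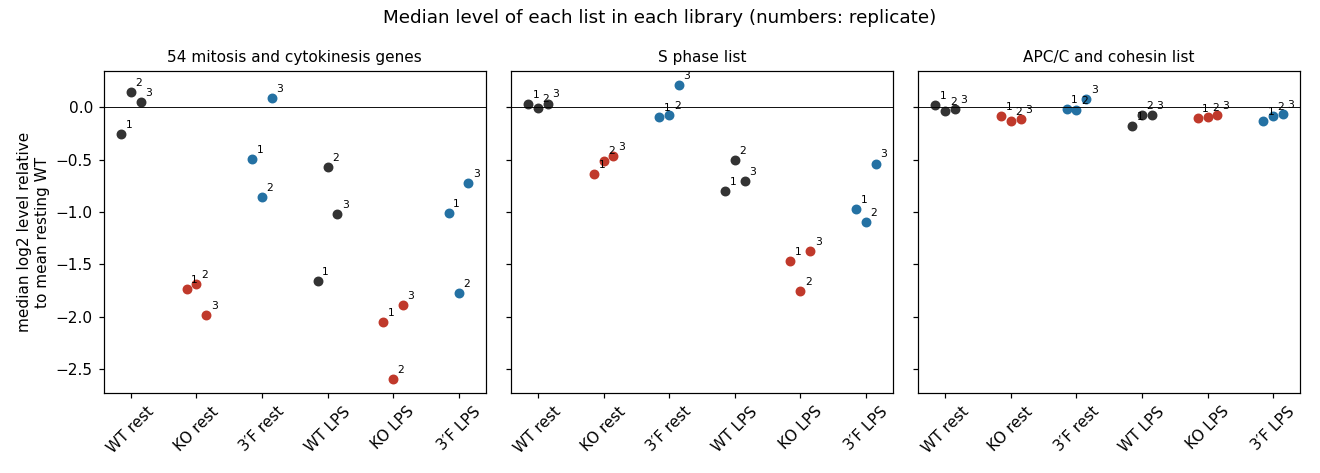
Median log2 level relative to mean resting WT (vertical axis) in each library (points, numbered by replicate) of the 6 groups, for the 54 members, the S phase list and the APC/C and cohesin list. The members reach −2.59 in KO replicate 2 with LPS, the S phase list −1.76 in the same library, and the APC/C and cohesin list stays near 0 in all libraries.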

How the data were processed

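RNA-seq was made from rRNA-depleted total RNA of 18 BMDM cultures with a directional kit. Per the labels and the submitters' processing notes, the authors trimmed reads with cutadapt 1.8.3, aligned them to mm10 with HISAT2 2.1.0 and counted them per gene and by strand with featureCounts 1.5.3, and the deposited values are raw counts of protein-coding genes. The counting required a high mapping quality, so reads shared by near-identical genes are lost.

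Genes were kept with edgeR's filterByExpr, libraries scaled by TMM, and all 6 groups fitted together by edgeR 4.0.16 (R 4.3.3) with the quasi-likelihood test. Each of 11 comparisons was two-sided, with p adjusted by Benjamini-Hochberg over 11357 genes and a call at 0.05. SE is the log2 fold change divided by the square root of F. All adjusted p-values come from this fit or, where stated, from its repeat without a library. Libraries of 1 group were separate cultures, and p-values measure the spread between them. No libraries of the same group were duplicates, since the lowest chi-square per degree of freedom between libraries of 1 group was 7.19. Libraries of different groups were not compared in this way.

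The members and lists were chosen with earlier results of these data known. Values in every library are given for the member of each role with the highest level per kb of exon and for Mki67, Top2a, Foxm1, Ccnb1 and Cdk1, and fitted values for these and for the 3 largest and 3 smallest differences of a comparison. Ncapg2 was given in every library after its values were seen. Other cell cycle genes named are Cdkn1a, Cdkn1b, Cdkn2c, Ccnd1, Ccnd2, Ccne1, E2f1, E2f8, Mybl2, Rbl1, Pcna and Mcm5, and up to 3 of each list with the largest differences among those called. Alternatives were RLE scaling, no filter, the compared groups alone, DESeq2 1.42.0, limma-voom 3.58.1 with quality weights, a replicate block and leaving out each library; leaving out both libraries that stood apart, or 1 of them for the other lists, was chosen after seeing the data. The scripts were tested on simulated counts. Promoters and microRNAs are from RefSeq and 3′ UTRs from the reference annotation.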

Additional observations from a re-analysis of the deposited data

How the results depend on the processing

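Counts of called members between resting KO and resting WT were 50 to 54 under all alternatives other than leaving out 1 library and 43 to 51 on leaving out 1. All counts for 3′F against WT and for both interactions were 0 under every alternative run. The percentages of all genes tested belong to the main fit, so the counts of members under alternatives are not set against all genes. With no filter on low counts, members called numbered 35 between KO and WT with LPS and 23 between KO and 3′F with LPS. With DESeq2, members called numbered 41 between KO and WT with LPS, 25 for the LPS response of 3′F and 32 between KO and 3′F with LPS. With limma-voom with quality weights, members called numbered 54 for the LPS response of WT, 8 for the LPS response of KO and 28 between KO and 3′F with LPS. With a fit of the groups compared alone, members called numbered 7 for the LPS response of 3′F, 0 between resting KO and resting 3′F and 34 between KO and 3′F with LPS. With both libraries that stood apart left out, members called numbered 41 between KO and WT with LPS, 10 for the LPS response of KO, 8 for the LPS response of 3′F, 8 between resting KO and resting 3′F and 32 between KO and 3′F with LPS. Leaving out 1 library at a time, the counts ran from 2 to 34 between KO and WT with LPS, from 11 to 43 for the LPS response of WT, from 2 to 6 for the LPS response of KO, from 5 to 26 for the LPS response of 3′F, from 21 to 46 between resting KO and resting 3′F and from 1 to 27 between KO and 3′F with LPS, and the libraries behind these shifts stand beside each result. With limma-voom the median difference of members was −0.801 between resting 3′F and resting WT, 0.873 for the LPS response of 3′F minus that of WT and 0.0756 between 3′F and WT with LPS, where leaving out 1 library gave −0.348 to 0.196.

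Among the members whose fitted values are given, those whose sign turned were not called, most had differences near 0, and the cause was not tested. Under limma-voom with quality weights the values were 0.11 (Incenp) between KO and WT with LPS, −0.056 (Iqgap3), −0.0025 (Mad2l1), 0.12 (Kif20a), 0.14 (Ccnb2) and 0.092 (Ccnb1) for the LPS response of KO, 0.15 (Ccnb2) for the LPS response of 3′F, 0.082 (Kif22) and 0.056 (Smc4) between 3′F and WT with LPS and 0.44 (Spc24) and 0.56 (Mad2l1) for the LPS response of 3′F minus that of WT. Under DESeq2 the values were −0.033 (Iqgap3) and −0.030 (Mad2l1) for the LPS response of KO, −0.024 (Iqgap3) for the LPS response of 3′F, 0.0100 (Nuf2) between resting 3′F and resting WT and 0.011 (Kif22) between 3′F and WT with LPS. Under no filter on low counts the values were −0.054 (Iqgap3) and −0.050 (Mad2l1) for the LPS response of KO, −0.024 (Ncapg2) between resting 3′F and resting WT, −0.0048 (Foxm1) between 3′F and WT with LPS and 0.028 (Mad2l1) for the LPS response of 3′F minus that of WT. Under RLE scaling the values were −0.036 (Iqgap3) and −0.033 (Mad2l1) for the LPS response of KO and −0.024 (Iqgap3) for the LPS response of 3′F. Under a fit of the groups compared alone the values were −0.046 (Iqgap3) and −0.043 (Mad2l1) for the LPS response of KO and −0.027 (Iqgap3) for the LPS response of 3′F. Between KO and WT with LPS, omitting 1 library gave −0.18 to 0.068 (Incenp). For the LPS response of KO, omitting 1 library gave −0.17 to 0.16 (Iqgap3), −0.10 to 0.14 (Mad2l1), −0.20 to 0.22 (Kif20a), −0.18 to 0.091 (Smc4), −0.30 to 0.12 (Ccnb2), −0.23 to 0.033 (Bub1b), −0.40 to 0.029 (Mki67) and −0.20 to 0.17 (Ccnb1). For the LPS response of 3′F, omitting 1 library gave −0.21 to 0.27 (Iqgap3), −0.23 to 0.23 (Ccnb2), −0.34 to 0.29 (Plk1) and −0.43 to 0.036 (Mki67). Between resting 3′F and resting WT, omitting 1 library gave −0.19 to 0.14 (Ncapg2), −0.71 to 0.29 (Nuf2) and −0.29 to 0.097 (Cdca5). Between 3′F and WT with LPS, omitting 1 library gave −0.81 to 0.061 (Cdc25c), −0.57 to 0.018 (Birc5), −0.25 to 0.33 (Kif22), −0.18 to 0.16 (Smc4) and −0.42 to 0.33 (Foxm1). Between resting KO and resting 3′F, omitting 1 library gave −0.20 to 0.0065 (Incenp). Between KO and 3′F with LPS, omitting 1 library gave −0.21 to 0.062 (Incenp). For the LPS response of KO minus that of WT, omitting 1 library gave −0.14 to 0.21 (Ncapg2), −0.33 to 0.095 (Cenpa) and −0.17 to 0.44 (Spc24). For the LPS response of 3′F minus that of WT, omitting 1 library gave −1.33 to 0.17 (Spc24), −0.25 to 0.30 (Mad2l1), −0.43 to 0.44 (Cdc25c) and −0.32 to 0.45 (Kif20b).

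The 6 libraries of a genotype came from 3 mice, so some of them share an animal. The labels do not say that a replicate number marks an animal or a day. Deviations of same-numbered resting and LPS libraries correlated over 11357 genes from −0.00195 to 0.342, and 6 of 9 libraries correlated best with their own number. These values could not decide whether the numbers pair the samples, since some own-number correlations were near 0 and others were not. The main fit did not pair the libraries, so its LPS responses and interactions treat libraries that share animals as independent. With the replicate number as a replicate block, members called numbered 51 between resting KO and resting WT, 22 between KO and WT with LPS, 51 for the LPS response of WT, 8 for the LPS response of KO, 32 for the LPS response of 3′F, 0 between resting 3′F and resting WT, 0 between 3′F and WT with LPS, 45 between resting KO and resting 3′F, 8 between KO and 3′F with LPS, 0 for the LPS response of KO minus that of WT and 0 for the LPS response of 3′F minus that of WT. Under the replicate block the values that changed sign were −0.021 (Iqgap3) for the LPS response of KO, −0.0088 (Mad2l1) for the LPS response of KO, −0.047 (Iqgap3) for the LPS response of 3′F, −0.020 (Foxm1) between 3′F and WT with LPS, 0.027 (Mad2l1) for the LPS response of 3′F minus that of WT and −0.018 (Cdc25c) for the LPS response of 3′F minus that of WT. With 3 libraries a group and totals down to 4071084 counts, small differences of low members such as Foxm1 could not be resolved.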
